A study of Mus musculus with 11 samples.

Results

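Wfdc3, Scgb1a1, Defb1, Tmprss7, Pnliprp1 and Reg1 are secretory epithelial genes whose signal rose in the liver of mice given the intracellular domain of Notch1 (NICD1) or Notch2 (NICD2). They are 6 of 22911 named genes on the array, and they are read by 7 of its 56605 probes, since Wfdc3 has 2 probes. They were chosen by their rise over GFP in the log2 signals of these same arrays, so every difference from GFP given for them is a description without a test. All samples were liver total RNA of male C57Bl6/J mice injected intraperitoneally with AAV8 vectors at 8 weeks of age, with liver taken on day 5. The GFP group (3 arrays) received 6e+11 vector genomes per mouse of AAV8-GFP. The NICD1 group (3 arrays) received 3e+11 of AAV8-NICD1 and 3e+11 of AAV8-GFP, and the NICD2 group (3 arrays) received 3e+11 of AAV8-NICD2 and 3e+11 of AAV8-GFP. The NICD1&2 group (2 arrays) was injected with 3e+11 of AAV8-NICD1 and 3e+11 of AAV8-NICD2 without AAV8-GFP, so its NICD dose was 6e+11. A CMV promoter, which is not specific to hepatocytes, drove each vector. The study's methods speak of several mice per experimental group, but the labels do not tie each array to a mouse, so p-values measure the spread between these arrays, which may be technical.

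Notch receptors are cut after they bind a ligand on a neighbouring cell, and the released intracellular domain joins the DNA-binding protein Rbpj in the nucleus and switches on target genes such as those of the Hes and Hey families. In the liver this pathway is known for forming bile ducts. The 6 genes are known from other organs: they encode proteins that glandular or mucosal epithelia release or carry at their surface. Scgb1a1 encodes uteroglobin, the main secreted protein of airway club cells. Defb1 encodes a beta-defensin, a small antimicrobial peptide of mucosal surfaces, and Wfdc3 encodes a protein of the whey acidic protein (WAP) family, whose members include protease inhibitors. Tmprss7 encodes a serine protease anchored in the cell membrane. Pnliprp1, a relative of pancreatic lipase, and Reg1, a C-type lectin, encode proteins known from pancreatic juice.

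The genes do not form one cluster in the mouse genome. On the GRCm38.p6 assembly Wfdc3 lies at chr2:164731226-164745994, Scgb1a1 at chr19:9083642-9087956, Defb1 at chr8:21776555-21795185, Tmprss7 at chr16:45656309-45698553, Pnliprp1 at chr19:58728887-58744169 and Reg1 at chr6:78425983-78428668. Scgb1a1 and Pnliprp1 share chromosome 19 but lie at distant positions on it.

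RefSeq promoter windows of 300 bases (GRCm38.p6, 250 bases before to 50 after the annotated start) were at hand for 3 of the 6 genes and are shown because NICD acts through Rbpj, which binds DNA around the letters TGGGAA. Capitals mark TGGGAA or, for the same letters on the opposite strand, TTCCCA, and each sequence runs 5′ to 3′ along the strand of the gene.
Wfdc3 promoter, chr2:164743218-164743517, minus strand: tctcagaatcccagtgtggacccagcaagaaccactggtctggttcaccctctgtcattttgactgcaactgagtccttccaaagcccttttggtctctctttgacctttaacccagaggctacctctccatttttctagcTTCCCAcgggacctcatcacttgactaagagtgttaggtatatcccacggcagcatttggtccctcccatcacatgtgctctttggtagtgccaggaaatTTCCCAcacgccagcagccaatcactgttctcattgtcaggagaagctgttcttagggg
Pnliprp1 promoter, chr19:58728637-58728936, plus strand: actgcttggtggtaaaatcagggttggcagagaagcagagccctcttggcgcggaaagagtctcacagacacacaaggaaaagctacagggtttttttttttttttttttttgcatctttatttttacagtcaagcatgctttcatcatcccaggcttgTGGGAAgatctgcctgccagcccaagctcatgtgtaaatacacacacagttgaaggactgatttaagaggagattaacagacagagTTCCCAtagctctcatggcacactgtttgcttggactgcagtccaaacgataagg
Reg1 promoter, chr6:78425733-78426032, plus strand: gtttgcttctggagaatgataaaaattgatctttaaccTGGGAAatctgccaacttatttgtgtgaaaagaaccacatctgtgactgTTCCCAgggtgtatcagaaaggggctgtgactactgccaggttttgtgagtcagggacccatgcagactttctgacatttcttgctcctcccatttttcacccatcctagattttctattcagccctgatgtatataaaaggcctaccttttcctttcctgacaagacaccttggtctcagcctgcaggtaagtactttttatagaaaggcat
The start used for Wfdc3 lies inside the span of the gene and not at its outermost end. No window is shown for Scgb1a1, Defb1 and Tmprss7. Each of the 3 windows held 2 matches. At least 1 match was present in 25.6% of the 32851 promoter windows of the table and at least 2 in 3.79%. The longer letters GTGGGAA, which contain TGGGAA and were also searched on both strands, occurred 2 times in the Wfdc3 window. They occurred 1 time in that of Pnliprp1 and 0 times in that of Reg1. Of all windows, 6.38% held them at least 1 time and 0.256% at least 2 times. Counted from the start, the Wfdc3 matches began at -109 and -9, those of Pnliprp1 at -91 and -5, and those of Reg1 at -212 and -163. A match describes the letters of the window and is not a binding site.

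The levels below are log2 of the processed signal less the 75th percentile of the same array, so a level of 0 is the signal that 75% of probes do not exceed. The scanner software flagged whether a spot was well above background, and a probe that was not has only an upper bound there. Levels of different probes are not compared with each other. Hepatocyte genes were bright in every group, with a mean Alb level of 10.21 in GFP, 10.06 in NICD1, 10.14 in NICD2 and 10.36 in NICD1&2, and all 19 hepatocyte markers on the array were well above background on all 11 arrays. RNA of a whole liver does not tell more cells of a type from more RNA per cell.

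Of Wfdc3, Scgb1a1 and Defb1, the only ones of the 6 genes with GFP arrays well above background, Wfdc3 showed the largest difference from GFP. Its probe A_52_P416086 read -4.23, -3.77 and -4.35 on the GFP arrays, -1.24, -0.95 and -1.14 on the NICD1 arrays, 0.80, 0.995 and 1.18 on the NICD2 arrays, and 0.89 and 1.51 on the NICD1&2 arrays. The GFP, NICD1 and NICD2 arrays formed 3 levels with no overlap, and the NICD1&2 arrays overlapped those of NICD2. The difference from GFP was 3.01 (SE 0.20) in NICD1, 5.11 (SE 0.20) in NICD2 and 5.32 (SE 0.23) in NICD1&2, which are folds of 8.04, 34.5 and 39.8. All arrays but GFP array 3 were well above background at this probe, and these folds take that array at its own signal. The second probe, A_55_P1953336, read -5.42, -4.69 and -4.43 on the GFP arrays, below background on each, and showed the same order of groups. It read -3.14, -2.98 and -3.59 in NICD1, -1.48, -1.33 and -1.30 in NICD2, and -1.45 and -0.91 in NICD1&2. Its signal was at least 2.62-fold, 9.53-fold and 10.9-fold higher than in GFP, in the same order of groups.

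Scgb1a1 had the largest standard error of the 6 genes. Its probe A_51_P128575 read -4.30, -4.40 and -3.90 on the GFP arrays, of which the second was not well above background. The NICD1 arrays read -2.89, -1.57 and -2.84, the NICD2 arrays -1.03, -0.11 and -0.15, and the NICD1&2 arrays -0.56 and 0.36. The second NICD1 array stood above the other two, and the first NICD2 array below its group, yet no NICD1 array reached the NICD2 range. The difference from GFP was 1.77 (SE 0.41) in NICD1, 3.77 (SE 0.41) in NICD2 and 4.10 (SE 0.46) in NICD1&2, or 3.41-fold, 13.7-fold and 17.1-fold. These values take the second GFP array at its own signal.

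Defb1 was measured on all 11 arrays and was the only one of the 6 well above background on all GFP arrays. Its probe A_55_P2893078 read -1.51, -1.83 and -1.48 in GFP, -0.65, -0.37 and -0.77 in NICD1, 0.48, 0.17 and 0.66 in NICD2, and 0.82 and 0.50 in NICD1&2. The groups again separated in the order GFP, NICD1, NICD2, with the NICD1&2 arrays overlapping those of NICD2. The difference from GFP was 1.01 (SE 0.17), 2.05 (SE 0.17) and 2.27 (SE 0.19) in NICD1, NICD2 and NICD1&2, or 2.02-fold, 4.13-fold and 4.81-fold.

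Tmprss7, the membrane protease, was not well above background on any GFP array and was so on every array with an NICD vector. Its probe A_66_P116507 read -5.90, -5.00 and -4.60 in GFP, -3.13, -2.45 and -3.59 in NICD1, -1.17, -1.19 and -0.94 in NICD2, and -0.96 and -0.81 in NICD1&2. The lowest NICD2 array lay above the highest NICD1 array by 1.26 on the log2 scale. Tmprss7 was at least 3.07-fold higher than GFP in NICD1, at least 11.9-fold in NICD2 and at least 13.8-fold in NICD1&2.

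The pancreatic pair differed in whether any NICD1 array was well above background. The Pnliprp1 probe A_51_P136781 read -5.50, -5.97 and -6.51 in GFP, below background on each array, and -3.71, -4.06 and -4.74 in NICD1, where 2 of 3 arrays were well above background. It read -2.06, -2.50 and -2.14 in NICD2, and -2.55 and -1.96 in NICD1&2. Pnliprp1 was at least 5.43-fold higher than GFP in NICD2 and at least 5.36-fold in NICD1&2. In NICD1 it read above all GFP arrays, at least 1.42-fold if NICD1 array 3, itself below background, is taken at its own signal. The Reg1 probe A_51_P329811 was well above background only on the 3 NICD2 arrays, which read -3.65, -3.84 and -3.49. It read -6.99, -6.11 and -6.26 in GFP, -6.89, -6.48 and -5.34 in NICD1, and -3.91 and -4.23 in NICD1&2. Reg1 was at least 2.02-fold higher in NICD2 than in GFP. No fold can be given for its other comparisons with GFP, because both groups were below background, although both NICD1&2 arrays read higher than all GFP arrays. Reg1 entered the set of tested probes only through its NICD2 arrays, so a difference between NICD2 and the other groups was built into its selection.

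Counted by fold, or by its lower bound where GFP was below background, 4 of the 6 genes were over 1.8-fold higher with no overlap of arrays in NICD1 against GFP, 6 of 6 in NICD2 and 5 of 6 in NICD1&2. By the fitted signal alone, whether or not it was above background, the counts were 5, 6 and 6, and the shares of the 36055 probes tested by that same rule were 0.793%, 0.682% and 4.14%. The genes were picked for this difference, so nothing is read from their counts. Within each slide the differences from GFP had the sign of the pooled values for all genes but Reg1 in NICD1, and NICD2 minus GFP for Wfdc3 was 4.90 on slide 1 and 5.53 on slide 2. With normexp background correction (offset 50) and quantile normalization, which adds the same intensity to every signal and so shrinks differences of dim probes, NICD2 minus GFP fell to 2.50 for Wfdc3, 1.54 for Scgb1a1, 1.40 for Defb1, 1.1 for Tmprss7, 0.66 for Pnliprp1 and 0.26 for Reg1.

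**Figure D1:**
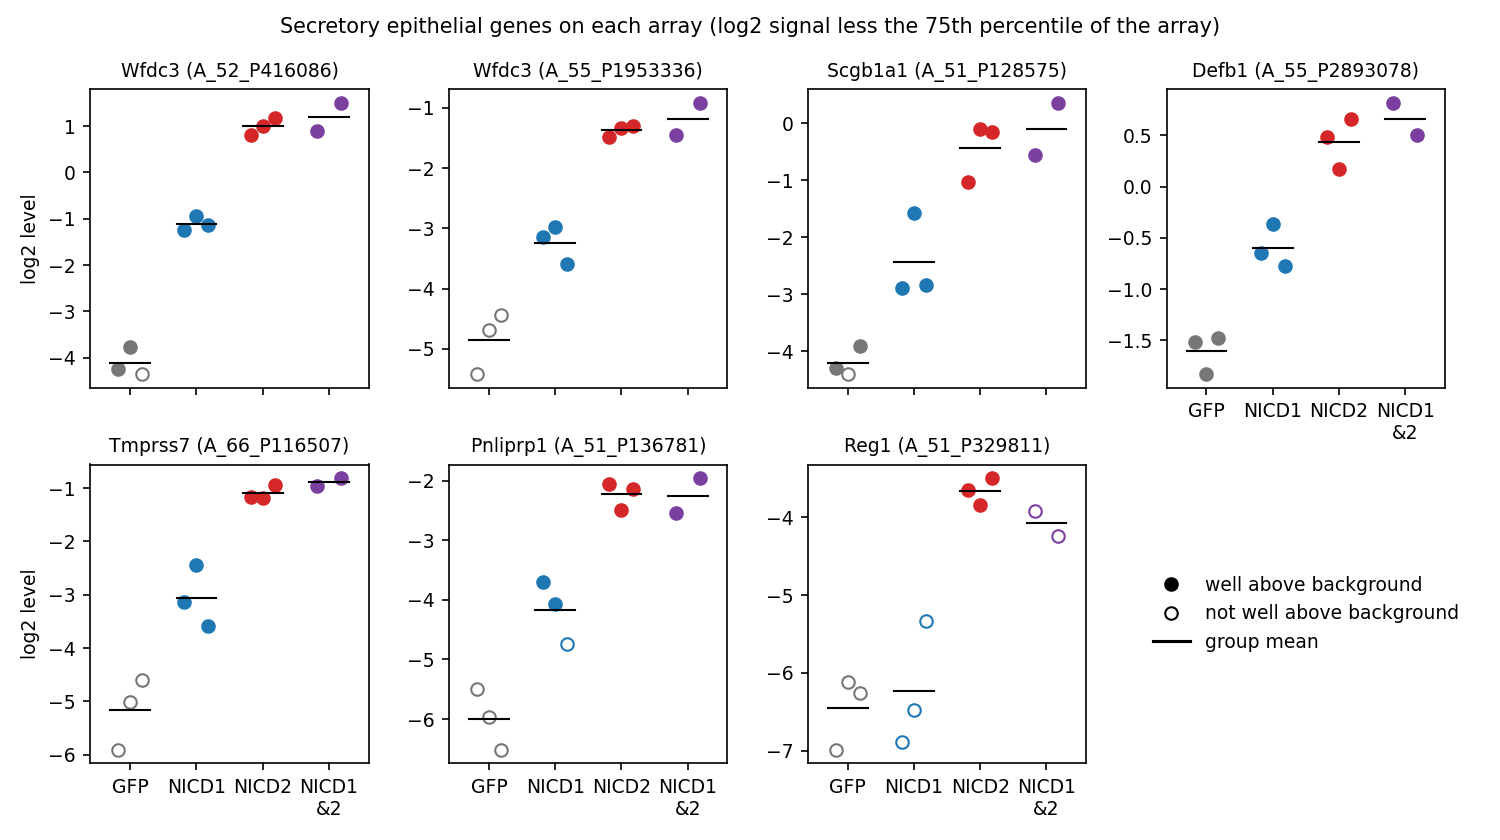
Log2 level (signal less the 75th percentile of the array) of the 7 probes on each of the 11 arrays, by group on the horizontal axis and with a vertical scale of its own for each probe; filled points were well above background, open points were not, and lines are group means. For Wfdc3 the NICD2 arrays lie between 0.80 and 1.18 and the NICD1 arrays between -1.24 and -0.95, while Reg1 has filled points only in NICD2.

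The order of the groups was then examined on the same arrays from which the genes had been chosen. The rise for which they were chosen was larger with NICD2 than with NICD1, so the choice can favour that order. The intervals and p-values between NICD groups given below are therefore descriptive. NICD2 gave the higher signal than NICD1 for the 5 genes other than Reg1, by 2.10 for Wfdc3 (SE 0.20, 95% interval 1.64 to 2.56), 2.00 for Scgb1a1 (SE 0.41, 1.07 to 2.94), 1.03 for Defb1 (SE 0.17, 0.64 to 1.43), 1.96 for Tmprss7 (SE 0.35, 1.16 to 2.76) and 1.94 for Pnliprp1 (SE 0.33, 1.20 to 2.67) on the log2 scale. The Pnliprp1 value takes NICD1 array 3, which was below background, at its own signal, as do all its comparisons with NICD1. Reg1 was at least 1.87-fold higher in NICD2, but it was in the set only through its NICD2 arrays, so it gets no test here. For each of the 6 probes of the other genes all 3 NICD2 arrays lay above all 3 NICD1 arrays, where 0.302% of all probes were over 1.8-fold higher without overlap. Exact permutation gives p = 0.1 for each probe, the smallest that 3 arrays against 3 allow. None passed an adjusted p of 0.05 in limma over all 36055 probes, of which 1 (0.00277%) did so in this direction. The limma adjusted p was 0.054 for Wfdc3 (0.31 for its second probe), 0.76 for Scgb1a1, 0.41 for Defb1, 0.49 for Tmprss7 and 0.41 for Pnliprp1, while all 6 probes had an unadjusted p under 0.05. Quantile normalization and the 75th percentile over detected probes moved Wfdc3 past the threshold (limma adjusted p = 0.030 and 0.040), as did leaving out the second GFP array (limma adjusted p = 0.045). Normexp correction together with quantile normalization did so too for Wfdc3 (limma adjusted p = 4.86e-04) and for Tmprss7 (limma adjusted p = 0.013), although it lowered the differences to 1.51 for Wfdc3, 1.07 for Scgb1a1, 0.75 for Defb1, 0.79 for Tmprss7 and 0.51 for Pnliprp1. Within slides NICD2 minus NICD1 for Wfdc3 was 2.14 and 2.22.

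NICD1&2 mice were compared with those given NICD1 without NICD2, which differ in the NICD2 vector, the GFP vector and the total NICD dose. These p-values too come from the arrays on which the genes were chosen and are descriptive. Wfdc3 was higher in NICD1&2 by 2.31 on the log2 scale (SE 0.23, 95% interval 1.79 to 2.83, 4.95-fold, limma adjusted p = 0.036), the only one of the 6 genes past 0.05, where 3 of 36055 probes (0.00832%) were called higher. The call was lost without the filter on dim probes (limma adjusted p = 0.092), with only the compared groups in the fit (limma adjusted p = 0.36), and at the second Wfdc3 probe (2.06, limma adjusted p = 0.12). It was also lost on leaving out GFP array 3 (limma adjusted p = 0.058), NICD1 array 1, 2 or 3 (limma adjusted p = 0.16, 0.12 and 0.14), NICD2 array 1, 2 or 3 (limma adjusted p = 0.071, 0.11 and 0.096) or NICD1&2 array 2 (limma adjusted p = 0.33). The difference itself ranged from 1.67 to 2.62 over all 20 alternatives. Scgb1a1 differed by 2.33 (SE 0.46), Defb1 by 1.26 (SE 0.19), Tmprss7 by 2.17 (SE 0.39) and Pnliprp1 by 1.92 (SE 0.36), with limma adjusted p of 0.28, 0.17, 0.23 and 0.26. Normexp correction together with quantile normalization moved Defb1 (0.98, limma adjusted p = 0.024) and Tmprss7 (0.92, limma adjusted p = 0.0065) past the threshold and lowered Scgb1a1 to 1.27 and Pnliprp1 to 0.48. Both NICD1&2 arrays lay above all NICD1 arrays for each of the 6 probes of these genes, where 1.7% of all probes were over 1.8-fold higher without overlap. Reg1 was below background in both of these groups.

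Mice with both vectors and mice with NICD2 alone gave close values for most of the 6 genes. NICD1&2 minus NICD2 was 0.21 for Wfdc3 (95% interval -0.31 to 0.73), 0.33 for Scgb1a1 (-0.72 to 1.37), 0.22 for Defb1 (-0.22 to 0.66), 0.21 for Tmprss7 (-0.68 to 1.1) and -0.019 for Pnliprp1 (-0.84 to 0.80) on the log2 scale. The arrays of both groups overlapped for those 5 genes, and the limma adjusted p ran from 0.68 to 0.99, with 0 genes under an unadjusted p of 0.05. Over all 36055 probes limma called 0 (0%) higher and 1 (0.00277%) lower. Reg1 was not well above background on either NICD1&2 array, and both read below the 3 NICD2 arrays, through which alone it entered the set, so it gets no test. The widest of these intervals reached 1.37 on the log2 scale, so equal levels are not shown.

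**Figure D2:**
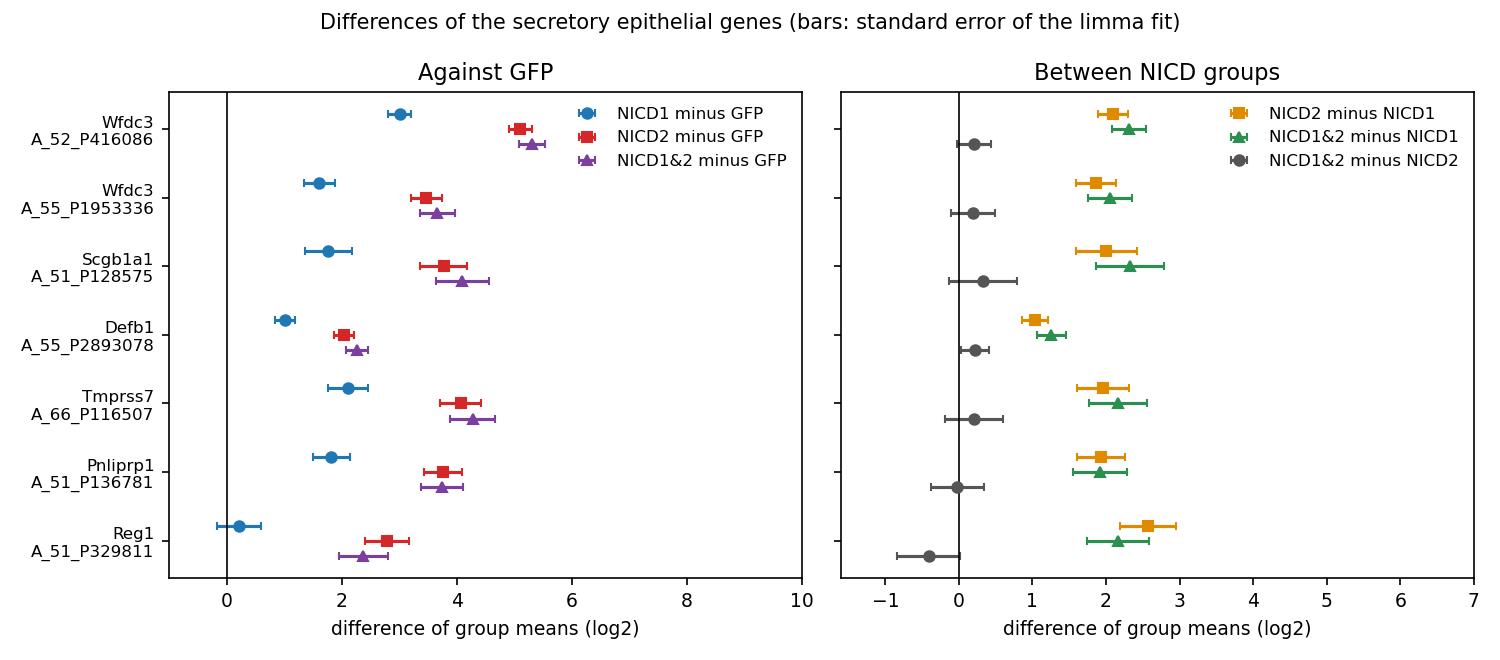
Difference of group means on the log2 scale for the 7 probes, against GFP on the left and between NICD groups on the right; points are differences and bars the standard error of the limma fit. Against GFP the NICD2 and NICD1&2 points lie to the right of the NICD1 point for each probe, and on the right the NICD1&2 minus NICD2 points lie between -0.41 and 0.33. Where a group was below background the plotted difference rests on a signal that has only an upper bound.

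Over the 11 arrays the genes other than Reg1 had similar profiles, with Pearson correlations from 0.939 (Scgb1a1 and Pnliprp1) to 0.974 (Wfdc3 and Tmprss7). Reg1, below background in both GFP and NICD1, correlated with them at 0.805 (Pnliprp1) to 0.845 (Defb1). These points share the difference between groups for which the genes were chosen. After each group mean was subtracted the correlations of the 15 gene pairs ran from -0.781 (Pnliprp1 and Reg1) to 0.590 (Scgb1a1 and Tmprss7), with a median of 0.084 and 9 of 15 above 0. In NICD1 the readings of Pnliprp1 and Reg1 ran in opposite order, with Reg1 below background.

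Apart from the 6 genes themselves, the named genes with the most similar profile were looked up among 4723 genes whose levels spanned more than 1 on the log2 scale, by Pearson correlation over the 11 arrays. Pfkfb4, an enzyme that sets the level of a glycolysis activator, came first for Wfdc3 (r = 0.977) and for Defb1 (r = 0.965), and second for Scgb1a1 (r = 0.955) and Pnliprp1 (r = 0.953). Its mean level was -2.70 in GFP, -0.74 in NICD1, 0.13 in NICD2 and 0.26 in NICD1&2, the same order of groups. Slc10a6, a transporter of sulfated steroids, came first for Tmprss7 (r = 0.972) and Pnliprp1 (r = 0.959) and second for Wfdc3 (r = 0.975) and Defb1 (r = 0.965), but was well above background only on the 3 NICD2 arrays and 1 NICD1&2 array. Nrarp, a target and feedback inhibitor of Notch, came second for Tmprss7 (r = 0.970). Hsd17b6, a steroid dehydrogenase, was first for Scgb1a1 (r = 0.959), and Sema5a, a semaphorin, came after Pfkfb4 (r = 0.954). Birc5 (r = 0.959 with Wfdc3), Gm826 (r = 0.958 with Defb1 and 0.966 with Tmprss7) and Nrg4 (r = 0.936 with Pnliprp1) filled the other places. Reg1 stood apart with Krt79, a keratin (r = 0.960), Gdpd5 (r = 0.935) and Ciart (r = 0.932). Krt79 had mean levels of -3.09 in GFP, -2.46 in NICD1, 0.79 in NICD2 and 0.39 in NICD1&2. Like all the other genes named here, it differed less from GFP in NICD1 than in the other groups.

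**Figure D3:**
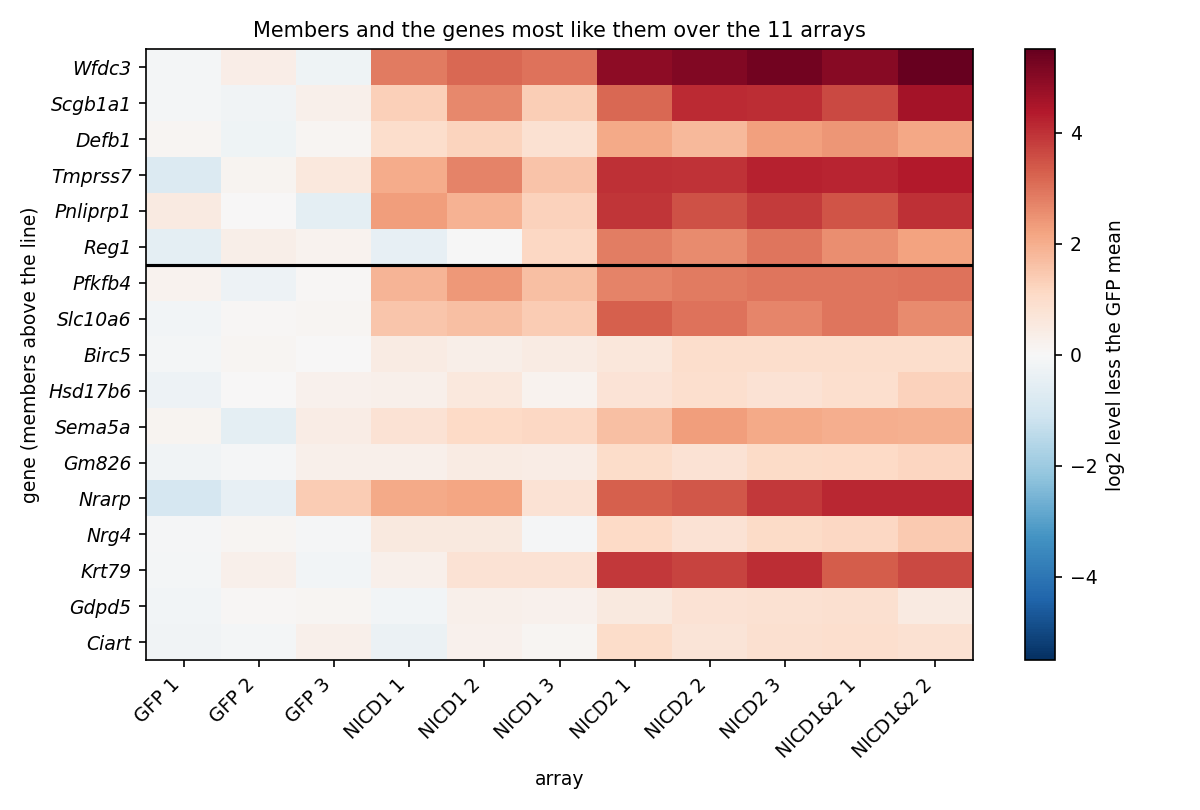
Heat map of the log2 level less the GFP mean, with the 11 arrays in columns and genes in rows, the 6 secretory epithelial genes above the line and the genes with the most similar profile below it. Red marks a level above the GFP mean. Colour deepens from the NICD1 to the NICD2 arrays in most rows, and in every row the NICD1 mean is closer to GFP than the NICD2 mean is.

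Relatives of the 6 genes were read next, to see how far the rise extended through each family. None of the relatives tested was called in any comparison with GFP at a limma adjusted p of 0.05, and most were too dim to be tested. Of 21 other WAP family genes 12 were tested, with a median difference of -0.083 in NICD1, -0.20 in NICD2 and 0.13 in NICD1&2, and 1, 1 and 0 had an unadjusted p under 0.05. Slpi, an epithelial protease inhibitor of that family, was 0.89 higher in NICD2 (SE 0.59, limma adjusted p = 0.87) with overlapping arrays. Of 18 other secretoglobins on the array 8 were tested, with medians of 0.38, 0.22 and 0.57 and 0 at an unadjusted p under 0.05 in each comparison. Scgb1b2 and Scgb1b19, which have near-identical copies that a probe may not tell apart, had both NICD1&2 arrays above all GFP arrays (limma adjusted p = 0.40 and 0.34), with 2 and 1 of 3 GFP arrays well above background. The airway secretoglobins Scgb3a1 and Scgb3a2 were well above background on all arrays, with mean levels of -3.88 and -3.49 in GFP and -3.46 and -3.23 in NICD2.

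Of 37 other beta-defensins 10 were tested, with medians of 0.17, -0.056 and 0.63, and 0, 0 and 2 at an unadjusted p under 0.05. In NICD1&2, Defb6 and Defb47 lay above all GFP arrays (limma adjusted p = 0.36 and 0.42), of which 1 of 3 was well above background for each, and Defb34 and Defb42 lay below them (limma adjusted p = 0.25 and 0.37) without reaching background on either NICD1&2 array. Of 19 other transmembrane serine proteases 9 were tested, with medians of -0.077, 0.51 and 0.93, and 0, 2 and 2 at an unadjusted p under 0.05. Corin, best known as a heart protease, read above all GFP arrays in NICD2 (limma adjusted p = 0.72), where 2 of 3 arrays were well above background and 0 of 3 in GFP, and Tmprss3 and Tmprss4 were higher in NICD1&2 by 1.06 (SE 0.27, limma adjusted p = 0.19) and 0.93 (SE 0.24, limma adjusted p = 0.18) without overlap. Tmprss11c was below background on all GFP and NICD1&2 arrays and well above it on 1 of 3 NICD1 and 2 of 3 NICD2 arrays. Of 8 genes of the lipase family 4 were tested, with medians of -0.0085, -0.047 and -0.10 and 0, 1 and 1 at an unadjusted p under 0.05. Pancreatic lipase itself, Pnlip, was below background on every array, with mean levels of -6.77 in GFP and -6.66 in NICD2. Of 6 other Reg genes 2 were tested, with medians of 0.041, -0.37 and 0.29 and 0 at an unadjusted p under 0.05, and none of the 6 was well above background on any NICD2 array. Over all 16627 genes tested the medians were 0.0022, 0.022 and 0.12, so NICD1&2 values are read against a general shift of 0.12. By limma 2, 12 and 19 of those genes were called higher and 0, 1 and 3 lower, and 974, 1285 and 2793 had an unadjusted p under 0.05. Among all 36055 probes the shares called higher were 0.00832%, 0.0444% and 0.0749%, and those called lower were 0%, 0.00832% and 0.0166%.

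Markers of the organs that normally make these proteins were set beside them. For the exocrine pancreas 28 marker genes were on the array, and 14 were not above background on any GFP array, 14 on any NICD1 array, 14 on any NICD2 array and 15 on any NICD1&2 array. Well above background on all arrays of the group were 11 in GFP, 12 in NICD1, 11 in NICD2 and 12 in NICD1&2. Trypsinogen Prss2 and carboxypeptidase Cpa1, which define the acinar cell, were below background on all 11 arrays. The pancreas markers Cela1 and Amy2a5 were well above background on all 11 arrays, with mean levels of 5.21 and 3.14 in GFP and 5.08 and 3.39 in NICD2. Amy2a5 read 3.03 to 3.22 in GFP, below its NICD2 range of 3.32 to 3.51 and its NICD1&2 range of 3.24 to 3.40 (limma adjusted p = 0.81 and 0.56). The summed linear signal of the list was 44.2 to 56.3 in GFP, 40.8 to 47.9 in NICD1, 46.8 to 52.6 in NICD2 and 50.4 to 57.3 in NICD1&2, in multiples of the 75th percentile. Cela1 and Amy2a5 carried most of that sum. GFP overlapped each NICD group, and NICD1 lay below NICD1&2. None of its 14 tested genes was called by limma, and 1, 2 and 2 had an unadjusted p under 0.05. Bhlha15, the transcription factor Mist1 that builds the secretory machinery of gland cells, was the tested gene of that list with the largest difference: its mean level was -3.11 in GFP, -1.51 in NICD1, -1.39 in NICD2 and -0.46 in NICD1&2. All arrays of each NICD group lay above all GFP arrays, by 1.60 (SE 0.52), 1.72 (SE 0.52) and 2.65 (SE 0.58), with limma adjusted p of 0.80, 0.49 and 0.14. Spink1, a secreted trypsin inhibitor, was higher in NICD1&2 by 0.89 (SE 0.30, limma adjusted p = 0.26) without overlap.

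Among 17 airway and alveolar markers 13 were tested and none was called by limma, with 0 at an unadjusted p under 0.05 in any comparison with GFP. Of the 17 markers, 11 were well above background on all GFP arrays and 4 on none of them, and the tallies in NICD2 were 10 and 4. Surfactant gene Sftpc and the lung transcription factor Nkx2-1 were below background on all 11 arrays, and the summed signal of the list was 104 to 116 in GFP, 90.3 to 100.05 in NICD1, 93.0 to 111 in NICD2 and 105 to 119 in NICD1&2. Aldh1a7, an aldehyde dehydrogenase with a mean level of 6.73 in GFP and 6.52 in NICD1, carried most of that sum, and the median difference of the list was -0.084 in NICD1, -0.079 in NICD2 and 0.29 in NICD1&2. Of 23 intestinal and gastric markers on the array 14 were tested, none was called by limma, and 0, 2 and 2 had an unadjusted p under 0.05. Atp4a, the gastric proton pump, was higher by 0.93 in NICD2 (SE 0.20, limma adjusted p = 0.27) and 0.96 in NICD1&2 (SE 0.23, limma adjusted p = 0.17), and Mmp7, a protease of Paneth cells, read above all GFP arrays in NICD2 (limma adjusted p = 0.10), where 2 of 3 arrays were well above background and 0 of 3 in GFP. Agr2, which helps fold mucins, read above all GFP arrays in NICD1&2 (limma adjusted p = 0.43), with 0 of 3 GFP arrays and 1 of 2 NICD1&2 arrays well above background. The mucin Muc2 was below background on every array, while 10 of the 23 markers were well above background on all GFP arrays and 12 on none of them, and the tallies in NICD2 were 10 and 9. The summed signal of the list was 22.7 to 31.1 in GFP, 23.1 to 25.4 in NICD1, 22.5 to 26.4 in NICD2 and 24.5 to 26.5 in NICD1&2. Of 17 kidney and genital tract markers 11 were tested, none was called by limma, and 0, 1 and 1 had an unadjusted p under 0.05. Pax2, a kidney transcription factor, differed from GFP by -0.97 in NICD2 (SE 0.14, limma adjusted p = 0.075), its relative Pax8 was higher in NICD1&2 by 0.998 (SE 0.45, limma adjusted p = 0.34), and Umod, the main secreted protein of the kidney, was below background on all arrays. Of the 17 markers, 5 were well above background on all GFP arrays and 7 on none of them, and the tallies in NICD2 were 5 and 6. The summed signal of that list was 31.0 to 34.4 in GFP, 24.2 to 29.2 in NICD1, 17.1 to 20.6 in NICD2 and 24.5 to 31.8 in NICD1&2. Pax2, with a mean level of 4.87 in GFP and 4.59 in NICD1, carried most of that sum, and the median difference of the list was 0.056 in NICD1, 0.12 in NICD2 and 0.45 in NICD1&2. In the general secretory pathway 22 of 23 genes were tested, none was called by limma, the median differences were -0.026, 0.031 and 0.18, and 2, 2 and 6 had an unadjusted p under 0.05. The part of other cell types in the rise of the 6 genes was not tested.

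Genes that Notch is known to act on were the last group. Against GFP, 2, 6 and 10 of 19 tested Notch targets had an unadjusted limma p under 0.05 in NICD1, NICD2 and NICD1&2. For 22 tested bile duct genes the counts were 2, 4 and 4, and over all 16627 genes 974, 1285 and 2793. Median differences were 0.11, 0.028 and 0.32 for Notch targets and 0.072, 0.083 and 0.25 for bile duct genes. In each of the bile duct list (22 of 24 genes tested) and the Notch target list (19 of 23 tested) the only gene called was Spp1, osteopontin, which both lists hold. Its mean level was 2.89 in GFP, 4.59 in NICD1, 4.70 in NICD2 and 5.12 in NICD1&2. The difference from GFP was 1.71 (SE 0.20, limma adjusted p = 0.099) in NICD1, 1.81 (SE 0.20, limma adjusted p = 0.028) in NICD2 and 2.23 (SE 0.22, limma adjusted p = 0.011) in NICD1&2. Its call in NICD2 was lost with no filter on dim probes (limma adjusted p = 0.056) and with only the compared groups in the fit (limma adjusted p = 0.18), which also ended that in NICD1&2 (limma adjusted p = 0.32). The call in NICD2 was also lost on leaving out GFP array 1 or 2 (limma adjusted p = 0.12 and 0.11), NICD1 array 1 or 3 (0.053 and 0.066), or NICD2 array 1, 2 or 3 (0.050, 0.14 and 0.14), and that in NICD1&2 on leaving out GFP array 2 (0.054) or NICD1&2 array 2 (0.19). Spp1 arrays overlapped between NICD1 (4.43 to 4.89) and NICD2 (4.43 to 4.88). Nrarp was below background in GFP and at least 4.65-fold higher in NICD2 (limma adjusted p = 0.10) and 7.07-fold in NICD1&2 (limma adjusted p = 0.072). Hes1, the classical Notch target, had mean levels of -2.49 in GFP, -2.52 in NICD1, -0.85 in NICD2 and -1.13 in NICD1&2, so it differed from GFP by 1.64 in NICD2 (SE 0.45, limma adjusted p = 0.42) and by -0.029 in NICD1. Sox9, a transcription factor of bile duct cells, was higher by 1.16 in NICD1&2 (SE 0.31, limma adjusted p = 0.20), and Muc1, a surface mucin, by 0.88 in NICD1 (SE 0.35, limma adjusted p = 0.88) and 0.85 in NICD2 (SE 0.35, limma adjusted p = 0.71), each without overlap. Cldn4, a tight junction claudin, lay above GFP on both NICD1&2 arrays (limma adjusted p = 0.38), with 1 of 3 GFP arrays and 1 of 2 NICD1&2 arrays well above background. The duct keratin Krt19 had mean levels of -2.17, -2.10, -2.08 and -1.88 in GFP, NICD1, NICD2 and NICD1&2. The array probe for Notch1 had a mean level of 0.55 in GFP, 0.77 in NICD1, 0.18 in NICD2 and 0.71 in NICD1&2, and that for Notch2 of 1.76, 2.05, 1.97 and 1.76. Whether those probes lie in the part of the transcript that the vectors carry is not given, so they check nothing about the vectors.

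**Figure D4:**
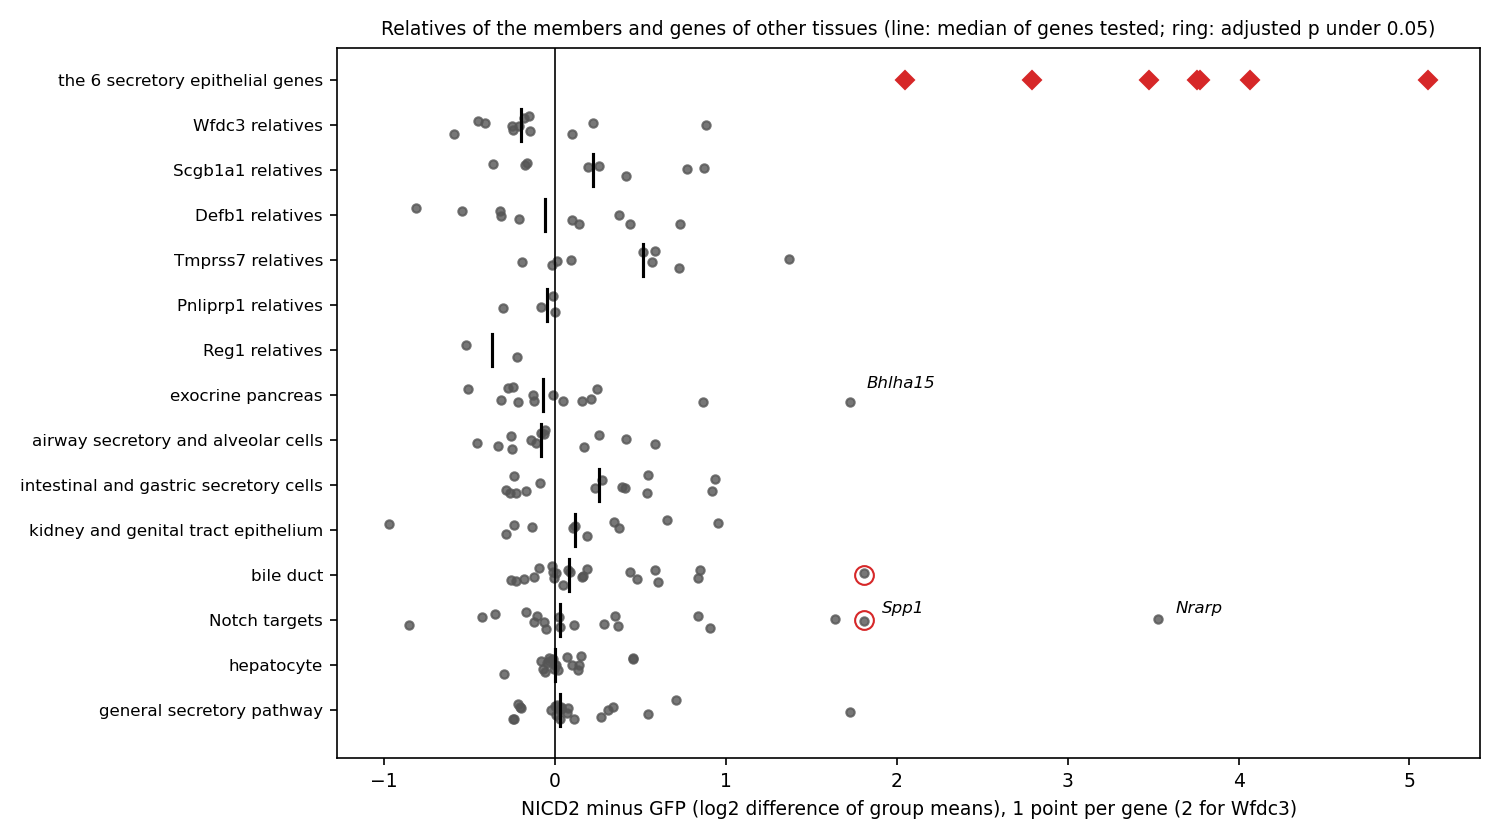
NICD2 minus GFP on the log2 scale for the 6 secretory epithelial genes (red diamonds, 7 probes) and for the tested genes of each list in rows (grey points), with black lines for list medians and red rings for a limma adjusted p under 0.05. The diamonds lie between 2.05 and 5.11 because the genes were chosen for this difference. Of the list genes, Nrarp, Spp1, Bhlha15 and Hes1 reach beyond 1.5. Bhlha15 belongs to the exocrine pancreas and general secretory pathway lists, and no relative of the 6 genes reaches that far.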

How the data were processed

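Liver RNA of 11 samples (GFP 3, NICD1 3, NICD2 3, NICD1&2 2) was measured on 1-colour Agilent arrays of 62976 spots. Per the file headers, the authors' Feature Extraction 11.5.1.1 had corrected each spot intensity for background and spatial trend and marked spots well above background. The authors also deposited a table of log2 values, scaled to the 75th percentile. For the 7 probes, the values used here minus the deposited ones were -0.0089 to -0.0040. The kit used for RNA differs between labels (NucleoSpin RNA XS) and methods (RNeasy Micro). The share of spots well above background ran from 57.0% to 62.0%, with 0 saturated, and the number of arrays limits the precision.

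Here 3671 control spots and up to 50 outlier spots per array were left out, spots of a probe were averaged, and log2 of the signal less the 75th percentile was taken. RefSeq accessions gave 32994 of 56605 probes a gene name. A probe was tested if 2 or more of the 11 arrays had it well above background, which 36055 probes met. They were fitted in R 4.3.3 with limma 3.58.1 (lmFit, eBayes), using 1 mean per group over all arrays, and p-values were adjusted by Benjamini-Hochberg over all of them. The code was tested on simulated data. Intervals are 95% intervals. Single values were also compared by exact two-sided permutation of arrays. For list genes with several probes, the probe of highest mean was taken. An at-least fold sets the group below background, on each array, at the dimmest signal well above background, or at the probe's own signal if higher. Promoter letters were counted in the RefSeq table of GRCm38.p6. Protein sequences were not analysed here.

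The 6 genes and all lists (271 of 279 listed genes were on the array) were chosen with earlier results of these data known. Named in the text were the 6 genes, list genes called or over 1.8-fold with an unadjusted p under 0.15 and no overlap with GFP, markers that show whether a tissue is present, the 3 other named genes most like each of the 6, and Notch1 and Notch2. Slpi, Krt19, Scgb3a1 and Scgb3a2 were named after their values were seen. Alternatives were other scalings, normexp background correction (offset 50) together with quantile normalization, other filters, only the compared groups, blocks for replicate number or slide, omission of single arrays, and other probes. Replicate numbers did not pair the samples: over 15 pairs of arrays with the same number the correlation of their deviations from group means ran from -0.41 to 0.17.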

Additional observations from a re-analysis of the deposited data

Results flagged for a closer look

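At Wfdc3 probe A_52_P416086, NICD1&2 lay 2.31 above NICD1 on the log2 scale (limma adjusted p = 0.036), with both NICD1&2 arrays above all 3 NICD1 arrays. Wfdc3 was chosen for its rise in these same arrays, so that p-value is not independent of the choice. These groups also differ in the GFP vector and the total NICD dose. The second Wfdc3 probe gave 2.06 (limma adjusted p = 0.12). Over 20 alternatives the limma adjusted p at Wfdc3 ran from 5.35e-04 to 0.36 and was under 0.05 in 8.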

How the results depend on the processing

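Between NICD groups, 1 of the 6 genes (Wfdc3) was called in NICD1&2 minus NICD1. That count was 3 with normexp correction and quantile normalization together (the normexp setting) and 0 with no filter on dim probes, with a filter of all arrays, and with only the groups compared, and it ran from 0 to 1 over omissions of single arrays. In NICD2 minus NICD1, where 0 were called, the count was 1 with quantile normalization, 1 with the percentile over detected probes, 2 with the normexp setting, and 0 to 1 over omissions of single arrays. With the replicate number as a block the Wfdc3 call in NICD1&2 minus NICD1 was lost (limma adjusted p = 0.082), leaving 0 calls, and no other call of the 6 genes or of the lists changed. By the fitted signal alone, whether or not above background, 5, 6 and 6 of the 6 genes were over 1.8-fold above GFP without overlap in NICD1, NICD2 and NICD1&2 (4, 6 and 5 by fold or bound). Omission of a single array left the signal counts as they were, the normexp setting gave 1, 4 and 4, and a filter of all arrays gave 1 in each group, since Defb1 alone then remained. List genes called against GFP numbered 0 in NICD1 (1 with the normexp setting, 1 with a filter of all arrays), 1 in NICD2 (3 with the normexp setting, 0 with no filter, 2 with a filter of all arrays, 0 with only the groups compared) and 1 in NICD1&2 (5 with the normexp setting, 0 with only the groups compared). Over omissions of single arrays the NICD2 and NICD1&2 counts each ran from 0 to 2. Differences near 0 changed sign. Pnliprp1 in NICD1&2 minus NICD2 (-0.019) became 0.021 with the slide as a block and ran from -0.31 to 0.28 over omissions of single arrays. In that comparison Scgb1a1 ran from -0.13 to 0.79 and Wfdc3 from -0.099 to 0.52, and Reg1 in NICD1 minus GFP ran from -0.23 to 0.55. Except where fewer probes or arrays entered by construction, the cause was not tested. Signals below background limit Reg1, Pnliprp1, Tmprss7 and the second Wfdc3 probe to bounds. At the first Wfdc3 probe and at Scgb1a1, 2 of 3 GFP arrays were well above background and the other was taken at its own signal.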
